A study of Saccharomyces cerevisiae with 18 samples.

Results

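The genes described are 36 genes of Saccharomyces cerevisiae that build the spore and its wall. They were chosen by name, as the genes whose symbol in the array's annotation was one of a list of spore formation and spore wall genes, and each of the 36 was read by 1 probe set. They make up 36 of the 5498 S. cerevisiae probe sets on the array, which stand for 5449 genes. RNA came from strain BY4742, a laboratory strain of haploid alpha cells, and was hybridised to 18 Affymetrix arrays read in a single colour. Cultures in the rich medium YPD were given nonylphenol, an alkylphenol left when some surfactants break down, dissolved in ethanol. The study asked how transcription responds to this compound at 2 concentrations.

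The groups were 5 mg/L nonylphenol for 120 min, 5 mg/L for 180 min, 1 mg/L for 120 min, 1 mg/L for 180 min, and control cultures given ethanol alone for 120 min or for 180 min. Each had 3 arrays, which the labels call biological replicates, and all 6 groups shared the strain, the medium and the ethanol. The labels name the strain alone; its standard genotype, from general knowledge, lacks URA3, LYS2, LEU2 and part of HIS3. No culture was placed in sporulation medium according to the labels, and haploid cells of a single mating type do not normally sporulate.

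Sporulation is the way a starved diploid yeast cell packs the products of meiosis into resistant spores. The outer face of each spindle pole body first gains a coat, the meiotic outer plaque, on which vesicles fuse into a prospore membrane that grows around a nucleus. After the membrane closes, a wall is laid down in layers of mannan, glucan, chitosan and dityrosine. Most of these genes belong to the middle or late class of sporulation genes. Middle genes are switched on by the transcription factor Ndt80, and many are held off in growing cells by the repressor Sum1, which works with Rfm1 and the deacetylase Hst1.

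All levels below are deposited RMA signals, read as log2 values. The background was set at 1.86, the percentile 95 of the mean signals of 1747 probe sets made for another yeast species. Averaged over the 6 control arrays, 29 of the 36 genes lay above it. The median of the 36 control means was 3.84, against a median of 7.95 for all S. cerevisiae probe sets, and all 36 control means fell below the median of all probe sets. Of the 36, 7 lay at or under the background, 20 between it and 5, and 9 at 5 or more. The number of genes with a group mean above background was 34 at 5 mg/L and 30 in controls at 120 min, and 33 at 5 mg/L and 30 in controls at 180 min. It was 30 at 1 mg/L at both times.

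The strain's marker genes were read as a check on the labels. The 4 alpha-specific genes summed to signals of 10888 to 11334 at 5 mg/L and of 11749 to 12217 in controls at 120 min. By 180 min they summed to 11976 to 12801 at 5 mg/L and to 11150 to 11774 in controls. The summed signal of the 7 a-specific genes, which an alpha cell keeps off, was 246 to 278 at 5 mg/L and 113 to 121 in controls at 120 min. Its values at 180 min were 224 to 251 at 5 mg/L and 107 to 112 in controls. Of these 7 genes, 6 were called higher at 5 mg/L at each time, where 25.4% of all probe sets were at 120 min and 27.1% at 180 min. Most of the 7 had control means of 2 to under 5, and of all probe sets in that range 55.5% and 47.7% were called higher. None of the 7 had a group mean under the background in any group. The 4 haploid-specific genes summed to 1342 to 1506 at 5 mg/L and to 1690 to 1730 in controls at 120 min, and to 1400 to 1439 at 5 mg/L and to 1673 to 1700 in controls at 180 min. The part of these markers in the results below was not tested. URA3 and LYS2 lay under the background in controls, while LEU2 read 3.03 and HIS3 9.34 in controls at 120 min.

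At 5 mg/L and 120 min, 18 of the 36 genes rose, 5 fell and 13 were not called (limma, Benjamini-Hochberg adjusted p under 0.05 over 5498 probe sets). Among all probe sets, 25.4% were called higher and 32.7% lower. The median log2 difference was 0.31 over the 36 genes and -0.04 over all probe sets. At 180 min 14 rose, 6 fell and 16 were not called, where 27.1% of all probe sets were called higher and 34.3% lower. The median was then 0.05, beside -0.04 for all. Rises passed at both times for 12 genes and falls for 3, and no gene was called in opposite directions.

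The control level moves with these counts. Among the 348 S. cerevisiae probe sets with a control mean of 2 to under 5, 55.5% were called higher and 8.62% lower at 120 min, with a median of 0.37. Of the 20 spore genes in that range 12 rose and 1 fell, with a median of 0.40, a share close to that of other probe sets as dim. At 180 min 47.7% of these dim probe sets were called higher and 10.9% lower, and of the 20 genes 9 rose and 3 fell. Among the 5043 probe sets with a control mean of 5 or more, 22.7% were called higher and 35.0% lower at 120 min. Of the 9 spore genes in that range 1 rose and 4 fell at 120 min, and 2 rose and 3 fell at 180 min, where 25.4% of the bright probe sets were called higher and 36.6% lower. Other-species probe sets had a median difference of -0.03 at 120 min, and -0.10 for the 60 of them with a control mean of 2 to under 5.

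**Figure D1:**
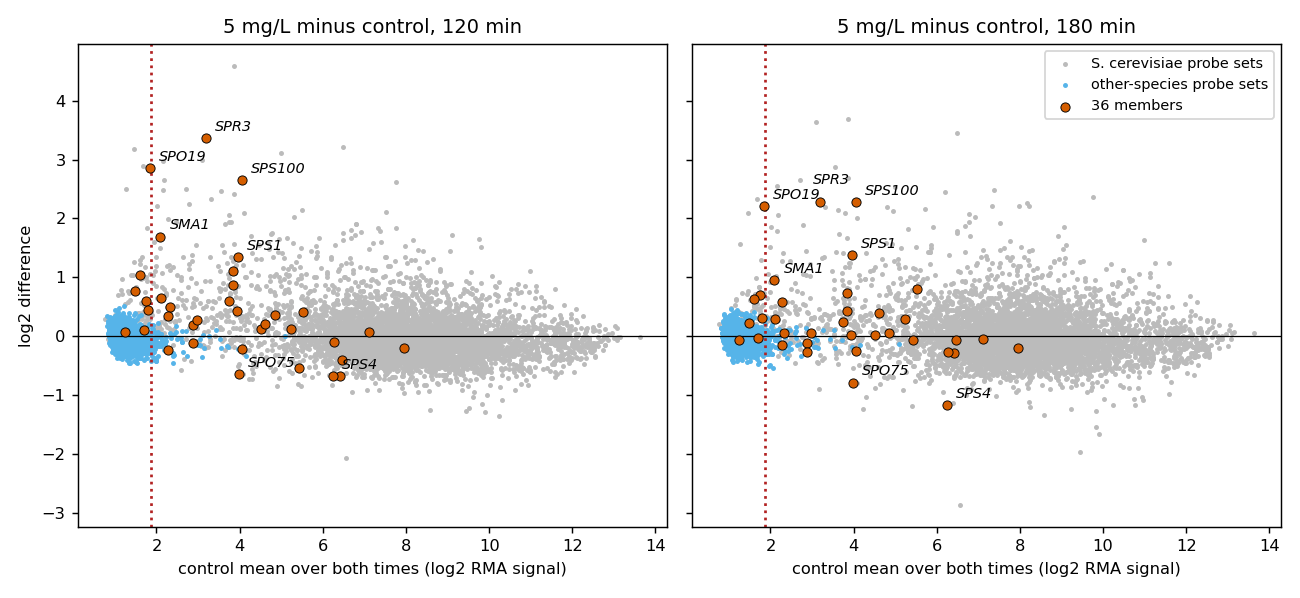
Log2 difference, 5 mg/L minus control, against the control mean over both times (log2 RMA signal), at 120 min on the left and 180 min on the right. Grey points are 5498 S. cerevisiae probe sets, blue points 1747 other-species probe sets, orange points the 36 spore genes, and the dotted line the background of 1.86. Most of the 36 lie at the dim end, where S. cerevisiae probe sets as a whole lie more often above 0 than below; SPR3, SPO19 and SPS100 lie at the upper edge of that cloud.

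The counts also depend on how arrays are scaled to each other. When the S. cerevisiae probe sets were brought to common quantiles without the other-species probe sets, 9 genes were called higher and 11 lower at 120 min, and 8 higher and 11 lower at 180 min. Poly-A control transcripts, bacterial RNAs meant for adding to samples, had a log2 signal 0.83 higher in cultures of 5 mg/L at 120 min and 0.22 higher at 180 min, relative to controls. On a scale set by them every gene shifts down by those amounts, and 4 genes were called higher and 17 lower at 120 min, and 4 higher and 2 lower at 180 min. The shares of all probe sets called under these other scalings are not given here. The counts are therefore not read as particular to the spore genes. SPR3, SPO19 and SPS100 were called higher under all 3 scalings at both times. SMA1 joined them at 120 min and SPS1 at 180 min. GAS2, SPO75, SPS18, SPS4 and SSP2 were called lower under all 3 scalings at 120 min, as were SPO75 and SPS4 at 180 min.

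**Figure D2:**
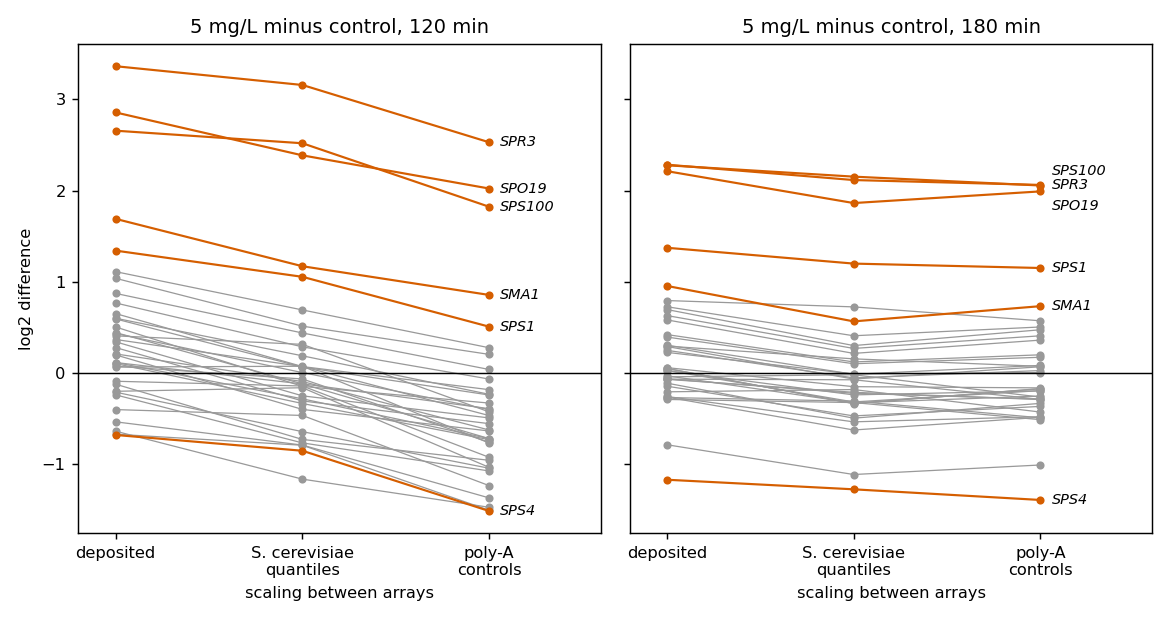
Log2 difference, 5 mg/L minus control, of each of the 36 genes under 3 scalings between arrays: as deposited, common quantiles of S. cerevisiae probe sets, and poly-A control transcripts. Each line is 1 gene, with 6 named in orange. SPR3 went from 3.36 as deposited to 3.16 and 2.53 at 120 min, whereas many grey lines cross 0.

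Among the 10 genes of the prospore membrane, 7 rose and 0 fell at 120 min by limma, and 5 rose and 1 fell at 180 min, with medians of 0.55 and 0.15. Counts by role are to be read against all probe sets, of which 25.4% were called higher and 32.7% lower at 120 min, and 27.1% and 34.3% at 180 min. Most of the 36 genes were dim, and among dim probe sets 55.5% were called higher and 8.62% lower at 120 min, and 47.7% and 10.9% at 180 min. On the poly-A scale only SPR3, SPO19 and SMA1 of the 10 prospore membrane genes stayed called higher at 120 min. SPR3 (YGR059W) encodes a septin made in sporulation. Its log2 signal was 6.40, 6.33 and 6.36 on the arrays of 5 mg/L, against 3.13, 3.0 and 2.87 in controls at 120 min. The arrays of 180 min read 5.77, 5.75 and 5.53 at 5 mg/L, against 3.24, 3.57 and 3.39 in controls. The groups lay far apart at both times and the treated replicates close together. The rise was 10.3-fold at 120 min (log2 3.36, SE 0.14, limma adjusted p = 1.80e-11), the second largest of all 5498 probe sets, and 4.87-fold at 180 min (log2 2.28, SE 0.14, adjusted p = 9.43e-10).

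SPR28 (YDR218C), the other sporulation septin of the list, was near the background in controls. Its signal was 2.68, 2.80 and 2.36 at 5 mg/L, against 1.96, 1.33 and 1.43 in controls at 120 min, of which 1 of 3 arrays was above the background and the mean was not. The rise is therefore given as at least 1.64-fold (limma adjusted p = 1.27e-05, fitted log2 1.04). For 180 min the signals were 2.36, 2.36 and 2.03 at 5 mg/L, against 1.51, 1.58 and 1.77 in controls. All 3 control arrays then lay under the background, so that rise was at least 1.31-fold (adjusted p = 0.00132). Such bounds take, for each control array, the higher of its own signal and the background.

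SPO19 (YPL130W) encodes a membrane-anchored protein found as a suppressor of spo1 mutants. It read 4.63, 4.61 and 4.75 at 5 mg/L, against 1.91, 1.60 and 1.90 in controls at 120 min. At 180 min the values were 3.92, 4.24 and 4.19 at 5 mg/L, against 2.0, 1.85 and 1.86 in controls. Control arrays thus sat at the background at both times and treated arrays well above it. The control mean at 120 min was under the background, with 2 of 3 arrays above it, so the rise was at least 6.81-fold (limma adjusted p = 6.74e-11, fitted log2 2.86). At 180 min the rise was log2 2.21 (SE 0.14, adjusted p = 1.47e-09).

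SMA1 (YPL027W), needed for prospore membrane assembly, was 3.99, 3.25 and 3.91 at 5 mg/L, against 1.94, 2.14 and 2.0 in controls at 120 min. By 180 min the values were 3.26, 2.96 and 3.14 at 5 mg/L, against 2.36, 2.04 and 2.10 in controls. NP5_120 replicate 2 stood below the other two, yet no treated array overlapped a control. The rises were 3.22-fold at 120 min (log2 1.69, SE 0.15, limma adjusted p = 7.07e-08) and 1.94-fold at 180 min (log2 0.95, adjusted p = 3.86e-05). SMA2 (YML066C), which acts in the same step, did not follow it: it was 2.75, 2.78 and 2.62 at 5 mg/L, against 2.82, 2.83 and 2.87 in controls at 120 min. At 180 min SMA2 was 2.69, 2.57 and 2.71 at 5 mg/L, against 2.93, 2.80 and 3.03 in controls. That fall was 1.2-fold (log2 -0.26, SE 0.11, adjusted p = 0.0383) and was lost in 5 of the 6 fits that left out 1 array. With common quantiles SMA2 was called lower at both times, with -0.73 at 120 min (limma adjusted p = 1.16e-06) and -0.62 at 180 min (adjusted p = 6.14e-06). On the poly-A scale it was called lower at 120 min (-0.96) and not at 180 min.

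SPO1, a phospholipase B homologue, rose by log2 0.60 at 120 min (SE 0.10, limma adjusted p = 7.26e-05) and 0.25 at 180 min (SE 0.10, adjusted p = 0.0401), the second of which was lost in 4 of 6 fits that left out 1 array. SSP1, of the coat at the leading edge of the membrane, rose by 0.37 at 120 min, with 0.06 at 180 min where it was not called. SPO77, which acts in membrane closure, rose by 0.50 at 120 min, a call lost without NP5_120 replicate 3 (adjusted p = 0.0569), and had 0.05 at 180 min. None of these rises was called on the other scalings. With common quantiles SPO1 had 0.19 at 120 min and -0.05 at 180 min, and SSP1 had 0.07 at 120 min. SPO77 then had -0.15 at 120 min and was called lower at 180 min (-0.34, limma adjusted p = 0.0349). ADY3, also of the leading edge, and SPO20, a SNARE that fuses vesicles to the membrane, were not called at either time on the deposited scaling. ADY3 was among the uncalled genes one with a control signal far above background: 6.99, 7.18 and 7.17 at 5 mg/L, against 7.08, 7.02 and 7.03 in controls at 120 min. Its log2 difference was 0.07 (95% interval -0.09 to 0.22) at 120 min.

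**Figure D3:**
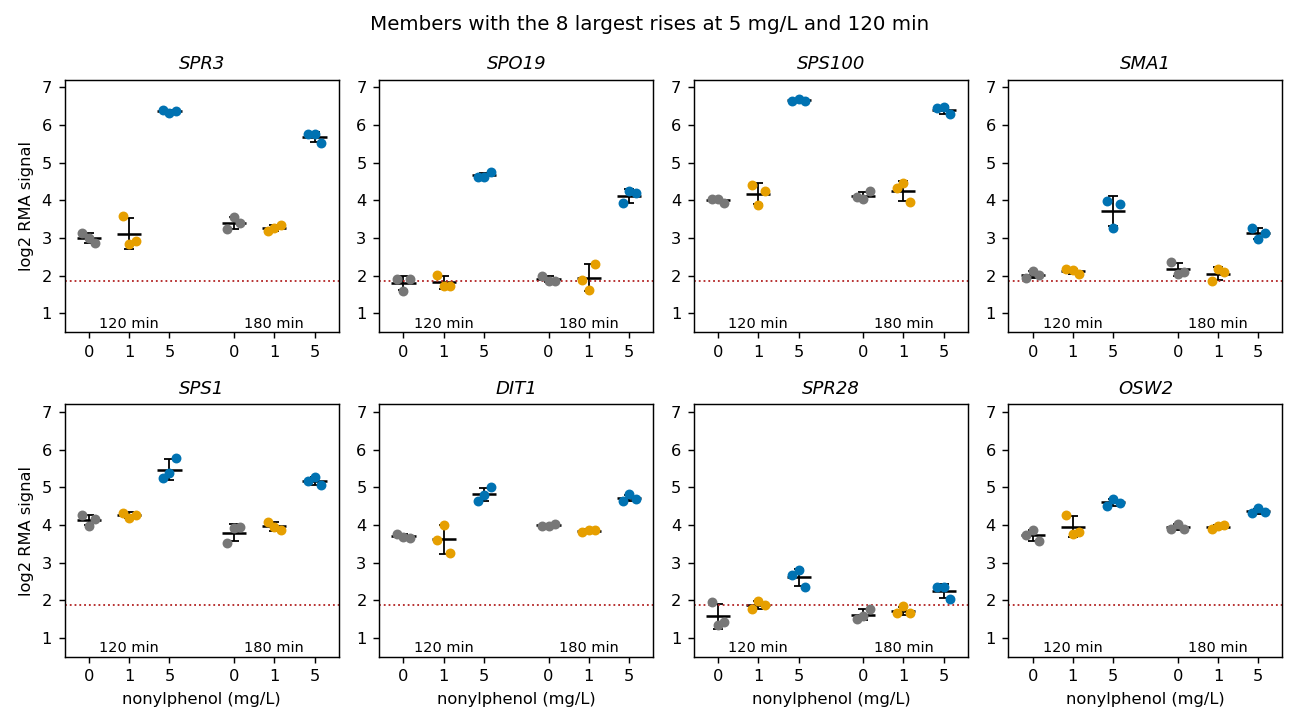
Log2 RMA signal of the 8 genes with the largest rises at 5 mg/L and 120 min, by dose (0, 1 and 5 mg/L nonylphenol) and time. Points are arrays, bars mean and SD of 3 arrays, and the dotted line the background of 1.86. In these 8 genes every array of 5 mg/L lies above every control array of its time, and none of the 8 was called at 1 mg/L. SPR3 had 6.33 to 6.40 at 5 mg/L and 2.87 to 3.13 in controls at 120 min.

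The 4 genes of the meiotic outer plaque, SPO21, MPC54, SPO74 and ADY4, moved little. By limma 1 rose at 120 min, and 2 rose and 1 fell at 180 min, with medians of 0.09 and 0.11. SPO21 rose by log2 0.21 at 120 min (SE 0.09, adjusted p = 0.0475) and 0.39 at 180 min (SE 0.09, adjusted p = 0.000868). The call at 120 min held in 1 of 6 fits that left out 1 array. MPC54 rose by 0.29 at 180 min (SE 0.07, adjusted p = 0.00176). ADY4 fell by 0.27 on the log2 scale at 180 min (SE 0.11, adjusted p = 0.0381), with 6.16, 5.95 and 5.87 at 5 mg/L, against 6.16, 6.22 and 6.40 in controls. These arrays met at 6.16, and the call was lost in 4 of 6 fits that left out 1 array. SPO74 lay under the background on all arrays of 5 mg/L and control, so nothing can be said of its change. On both other scalings neither rise at 180 min was called.

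Of the 4 genes of signalling and meiotic exit, limma called 2 higher and 1 lower at 120 min, and 1 higher and 1 lower at 180 min. SPS1 rose at both times. SPS1 (YDR523C) encodes a kinase of the Ste20 family that acts in membrane closure and wall formation. It read 5.25, 5.39 and 5.77 at 5 mg/L, against 4.25, 3.97 and 4.17 in controls at 120 min. Its values at 180 min were 5.15, 5.28 and 5.07 at 5 mg/L, against 3.53, 3.92 and 3.94 in controls. The rise was 2.53-fold at 120 min (log2 1.34, SE 0.12, limma adjusted p = 1.21e-07) and 2.59-fold at 180 min (log2 1.37, adjusted p = 9.75e-08), nearly the same size at both times.

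SSP2 (YOR242C), an activator of the spore wall kinase Smk1, fell at 120 min. It was 4.83, 5.10 and 5.29 at 5 mg/L, against 5.70, 5.59 and 5.54 in controls, 1.45-fold lower (log2 -0.54, SE 0.11, limma adjusted p = 0.000352). The arrays of 180 min read 5.18, 5.23 and 5.11 at 5 mg/L, against 5.13, 5.15 and 5.43 in controls, and the groups overlapped. SMK1 (YPR054W) itself, the MAP kinase of spore wall formation, fell by 0.26 on the log2 scale at 180 min (SE 0.09, adjusted p = 0.0203). It read 3.95, 3.64 and 3.79 at 5 mg/L, against 3.98, 3.98 and 4.19 in controls. The call was lost without control_180 replicate 3 or NP5_180 replicate 2. With common quantiles SMK1 was called lower at both times, with -0.64 at 120 min (limma adjusted p = 4.17e-05) and -0.54 at 180 min (adjusted p = 0.000236). AMA1, a meiotic activator of the anaphase-promoting complex, rose by 0.43 at 120 min (SE 0.12, adjusted p = 0.00463), with 0.03 at 180 min. Under the common quantiles AMA1 was at 0.00 at 120 min and -0.24 at 180 min.

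The 6 genes of the glucan layer were split. By limma 4 rose and 1 fell at 120 min, and 2 rose and 1 fell at 180 min, with medians of 0.42 and 0.30. CRR1 (YLR213C), a putative glycoside hydrolase of the spore wall, was 6.09, 6.15 and 6.16 at 5 mg/L, against 5.72, 5.69 and 5.76 in controls at 120 min. At 180 min CRR1 was 6.16, 6.14 and 6.03 at 5 mg/L, against 5.26, 5.35 and 5.34 in controls. The rise was 1.33-fold at 120 min (log2 0.41, SE 0.06, adjusted p = 1.08e-05) and 1.73-fold at 180 min (log2 0.79, SE 0.06, adjusted p = 5.02e-09). On the poly-A scale its value at 120 min was -0.43.

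GAS2 and GAS4, members of a gene family that encode glucan-extending enzymes of the spore wall, had estimates of opposite sign. GAS2 (YLR343W) was 5.70, 5.95 and 5.85 at 5 mg/L, against 6.47, 6.56 and 6.49 in controls at 120 min, 1.59-fold lower (log2 -0.67, SE 0.09, limma adjusted p = 1.31e-05). For 180 min the signals were 6.09, 6.15 and 5.91 at 5 mg/L, against 6.17, 6.33 and 6.52 in controls, and its fall of 0.29 on the log2 scale was lost without control_180 replicate 3 or NP5_180 replicate 3. GAS4, dim in controls, rose by 0.65 at 120 min (SE 0.17, adjusted p = 0.00385) and had 0.29 at 180 min, where it was not called. Under the common quantiles GAS4 was at 0.07 at 120 min. The 2 values of the pair were not tested against each other.

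SPS22 (YCL048W) and SPS2 (YDR522C) are paralogs that encode anchored proteins of the glucan layer. SPS22 was 2.40, 2.35 and 2.41 at 5 mg/L, against 1.83, 1.91 and 1.66 in controls at 120 min. The control mean was under the background, with 1 of 3 arrays above it, so the rise was at least 1.42-fold (limma adjusted p = 0.000369, fitted log2 0.59). By 180 min the values were 2.56, 2.08 and 2.6 at 5 mg/L, against 1.65, 1.84 and 1.67 in controls, which all lay under the background, a rise of at least 1.46-fold (adjusted p = 8.03e-05). SPS2 rose by 0.44 at 120 min (SE 0.16, adjusted p = 0.0233), a call lost without control_120 replicate 1 or NP5_120 replicate 3. SPR1, an exoglucanase of spores, was not called at either time on the deposited scaling. Under the common quantiles SPR1 was called lower, by -0.28 at 120 min (adjusted p = 0.0112) and -0.32 at 180 min (adjusted p = 0.00521), and on the poly-A scale at 120 min (-0.72).

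In the chitosan and dityrosine layers, the outermost parts of the wall, 3 of 7 genes rose and 0 fell by limma at each time, with medians of 0.34 and 0.23. At an unadjusted p under 0.05 the numbers were 4 at 120 min and 3 at 180 min, where 3411 and 3595 of all 5498 probe sets passed. DIT1 (YDR403W), which makes the dityrosine precursor, was 4.63, 4.79 and 5.00 at 5 mg/L, against 3.76, 3.67 and 3.66 in controls at 120 min. Its values at 180 min were 4.64, 4.81 and 4.70 at 5 mg/L, against 3.98, 3.96 and 4.03 in controls. The rise was 2.16-fold at 120 min (log2 1.11, SE 0.13, adjusted p = 1.48e-06) and 1.65-fold at 180 min (log2 0.73, adjusted p = 0.000128).

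DIT2 (YDR402C), the cytochrome P450 of the next step, lies beside DIT1 and is read in the opposite direction. It had a log2 difference of 0.34 at 120 min (SE 0.15, limma adjusted p = 0.0687) and rose by 0.58 at 180 min (SE 0.15, adjusted p = 0.00386). Neither other scaling called DIT2 at 180 min, with 0.21 for common quantiles and 0.36 for poly-A. DTR1, the transporter that exports the dityrosine precursor, was not called at either time on the deposited scaling, with -0.24 and -0.14. Under the common quantiles DTR1 was called lower at both times, with -0.77 (limma adjusted p = 0.000118) and -0.47 (adjusted p = 0.00600). OSW2 (YLR054C), of outer spore wall assembly, was 4.5, 4.70 and 4.59 at 5 mg/L, against 3.72, 3.87 and 3.58 in controls at 120 min, a rise of 1.83-fold (log2 0.87, SE 0.10, adjusted p = 2.27e-06). At 180 min OSW2 was 4.31, 4.44 and 4.34 at 5 mg/L, against 3.90, 4.04 and 3.89 in controls (log2 0.42, adjusted p = 0.00233). That rise was not called with common quantiles (0.12) or on the poly-A scale (0.20), where OSW2 had 0.04 at 120 min.

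OSW1, of the same process, was 1.88, 2.32 and 2.51 at 5 mg/L, against 1.71, 1.42 and 1.29 in controls at 120 min. Its controls lay under the background, so the rise was at least 1.30-fold (limma adjusted p = 0.000923), and at 180 min it was not called. The rise at 120 min was not called with common quantiles (log2 0.29) or on the poly-A scale (-0.07). CDA1 and CDA2, the chitin deacetylases that make chitosan, were not called at either time on the deposited scaling. CDA1 had a log2 difference of 0.20 at 120 min (95% interval -0.02 to 0.42) and -0.11 at 180 min. The mean of CDA2 lay under the background in all groups, so nothing can be said of its change. That holds for its calls on the other scalings as well. Under the common quantiles CDA1 was called lower with -0.40 at 120 min (adjusted p = 0.00139) and -0.50 at 180 min (adjusted p = 0.000211), and CDA2 with -0.33 at each time (adjusted p = 0.0411 and 0.0431). On the poly-A scale CDA1, CDA2 and DTR1 were called lower at 120 min and not at 180 min.

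The last group holds SPS100, SPO75, SPS4, SPS18 and SPR6. SPS100 (YHR139C), a late gene of spore wall maturation, was 6.64, 6.68 and 6.63 at 5 mg/L, against 4.02, 4.03 and 3.94 in controls at 120 min. The arrays of 180 min read 6.45, 6.46 and 6.28 at 5 mg/L, against 4.09, 4.04 and 4.24 in controls. The replicates of each group lay close together and the groups far apart. The rise was 6.30-fold at 120 min (log2 2.66, SE 0.12, limma adjusted p = 3.26e-11) and 4.85-fold at 180 min (log2 2.28, SE 0.12, adjusted p = 2.13e-10).

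SPS4 (YOR313C), a gene first found by its induction in sporulation, went the other way. It was 5.40, 5.40 and 5.59 at 5 mg/L, against 6.13, 6.16 and 6.14 in controls at 120 min. For 180 min the signals were 5.17, 5.46 and 4.93 at 5 mg/L, against 6.26, 6.39 and 6.42 in controls. It was 1.60-fold lower at 120 min (log2 -0.68, SE 0.10, limma adjusted p = 3.22e-05) and 2.25-fold lower at 180 min (log2 -1.17, SE 0.10, adjusted p = 8.30e-08), the eleventh largest fall of all probe sets at that time.

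SPO75 (YLL005C), needed for spore wall formation, was 3.46, 2.97 and 3.45 at 5 mg/L, against 3.93, 3.90 and 3.97 in controls at 120 min. By 180 min the values were 3.80, 3.25 and 2.70 at 5 mg/L, against 4.04, 3.96 and 4.12 in controls. The treated arrays scattered widely while the controls did not, and no array overlapped. SPO75 was 1.56-fold lower at 120 min (log2 -0.64, SE 0.20, limma adjusted p = 0.0128) and 1.73-fold lower at 180 min (log2 -0.79, SE 0.20, adjusted p = 0.00314). The call at 120 min was lost without NP5_120 replicate 2 (adjusted p = 0.0734).

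SPS18 (YNL204C), which encodes a zinc-finger protein, was 6.0, 6.16 and 6.28 at 5 mg/L, against 6.61, 6.51 and 6.52 in controls at 120 min, 1.32-fold lower (log2 -0.40, SE 0.09, limma adjusted p = 0.000698). At 180 min SPS18 was 6.24, 6.26 and 6.39 at 5 mg/L, against 6.25, 6.25 and 6.60 in controls and was not called. SPR6 (YER115C), another gene induced in sporulation, was 7.73, 7.55 and 7.78 at 5 mg/L, against 7.88, 7.91 and 7.88 in controls at 120 min. Its difference of -0.20 on the log2 scale did not pass (95% interval -0.40 to 0.00, adjusted p = 0.0821), nor did -0.21 at 180 min.

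**Figure D4:**
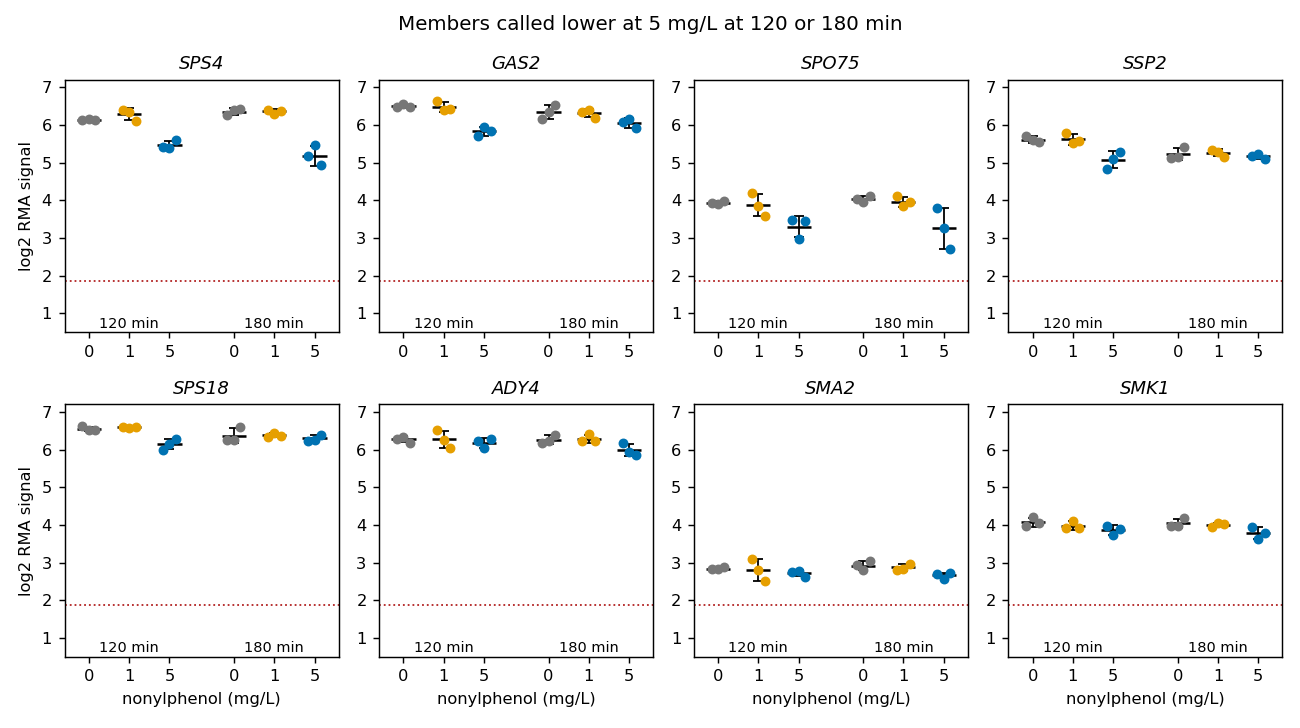
Log2 RMA signal of the 8 genes called lower at 5 mg/L at 120 or 180 min, by dose (0, 1 and 5 mg/L nonylphenol) and time. Points are arrays, bars mean and SD of 3 arrays, and the dotted line the background of 1.86. SPS4, GAS2, SPO75, SSP2 and SPS18 separate from controls at 120 min, while ADY4, SMA2 and SMK1 differ by at most 0.27 on the log2 scale at 180 min, on the deposited scaling.

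The effect of 5 mg/L was compared between times by the difference of the differences, 180 minus 120 min. By limma 2 of the 36 genes passed upward and 5 downward, where 8.53% of all probe sets passed upward and 6.46% downward. The rise of SPR3 was smaller at 180 min by 1.08 on the log2 scale (SE 0.20, adjusted p = 0.00325), and that of CRR1 larger by 0.39 (SE 0.08, adjusted p = 0.00525). These calls held in all 12 fits that left out 1 array. SMA1 (-0.74), SPO19 (-0.64) and OSW2 (-0.45) also had smaller rises at 180 min, SPS4 a larger fall (-0.49) and SSP2 a smaller one (0.47). These 5 calls were each lost without at least 1 array, with adjusted p-values of 0.0293 to 0.0493 on all arrays. On the poly-A scale, with its wider SEs, 0 genes passed, which does not show that the differences are absent there.

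**Figure D5:**
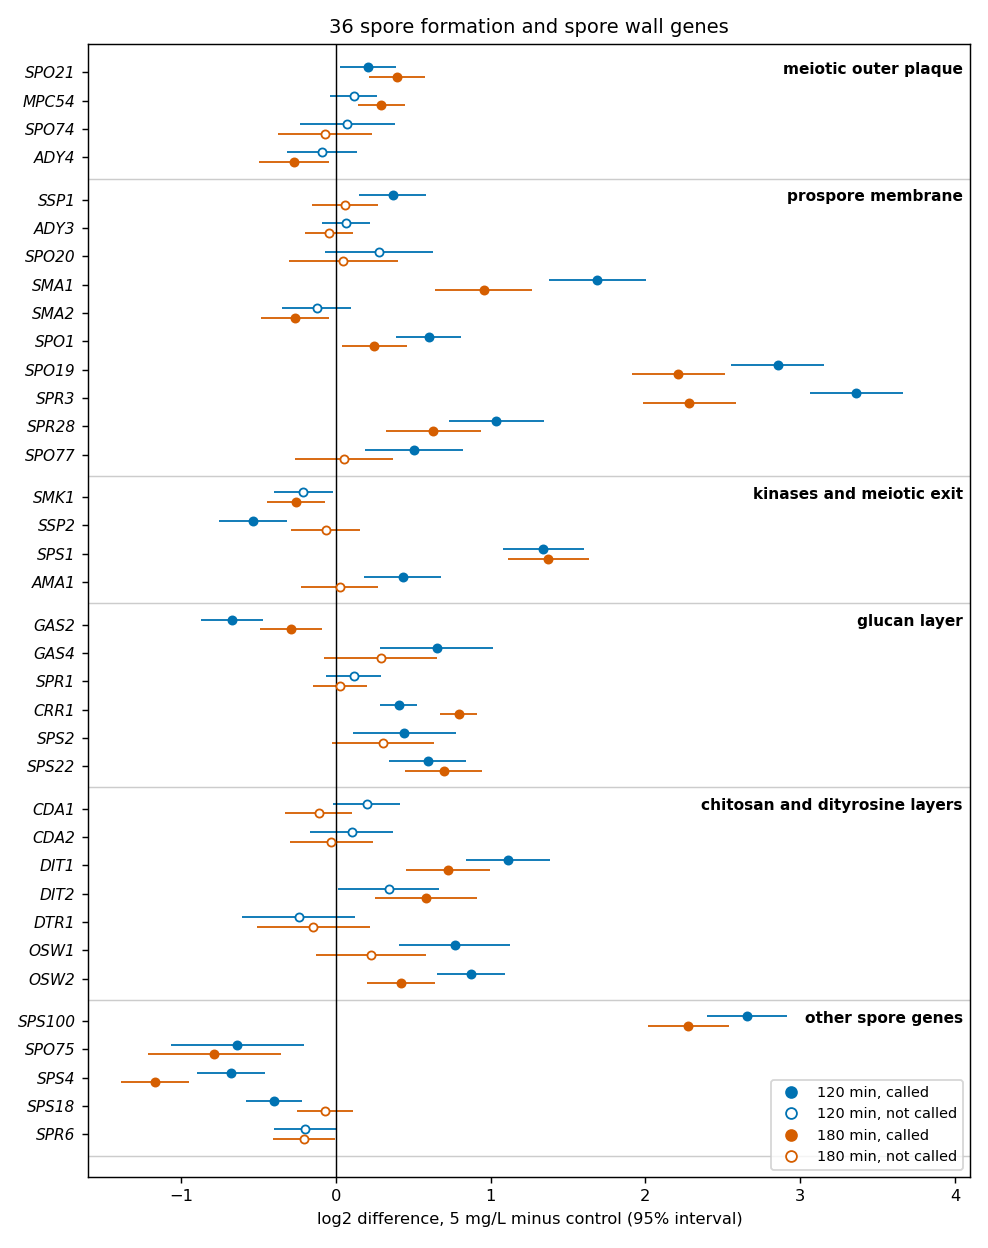
Log2 difference, 5 mg/L minus control, of the 36 genes grouped by role, with its 95% interval from the limma fit, at 120 min in blue and 180 min in orange. Filled points passed an adjusted p of 0.05 over 5498 probe sets. SPR3, SPO19 and SPS100 lie between 2.21 and 3.36 at both times, whereas the meiotic outer plaque lies within -0.27 to 0.39, on the deposited scaling; under the poly-A scaling all values at 120 min move down by 0.83.

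At 1 mg/L no gene of the 36 was called at either time by limma, where 0.218% of all probe sets were called higher and 0.236% lower at 120 min, and 0.0546% each way at 180 min. At an unadjusted p under 0.05 there were 2 genes at 120 min and 3 at 180 min, where 238 and 198 of all 5498 probe sets passed. With array weights SPS2 and SPO21 were called lower at 120 min and CRR1 higher at 180 min. The log2 differences of the 36 ran from -0.33 (SPS2) to 0.45 (SPO77) at 120 min and from -0.19 to 0.19 at 180 min. SPO77 had an adjusted p of 0.517 and CRR1, with 0.19 at 180 min, one of 0.443. For SPR3 the difference was 0.12 (95% interval -0.18 to 0.42) at 120 min and -0.14 (-0.44 to 0.16) at 180 min. For SPS100 it was 0.18 (-0.08 to 0.44) at 120 min, and for SPO19 0.01 (-0.29 to 0.31). SPR3 arrays at 1 mg/L read 3.58, 2.84 and 2.92 at 120 min and 3.20, 3.27 and 3.33 at 180 min.

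Between the doses, 5 against 1 mg/L, limma called 19 of the 36 higher and 7 lower at 120 min, where 24.3% of all probe sets were called higher and 33.1% lower. At 180 min it called 11 higher and 5 lower, where 26.7% and 32.7% of all probe sets were. These comparisons share the 5 mg/L arrays with those against control. SPR3 was 9.48-fold higher at 5 mg/L than at 1 mg/L at 120 min (log2 3.24, SE 0.14, adjusted p = 2.63e-11), and SPS100 5.55-fold. For SPO19, whose mean at 1 mg/L was under the background with 1 of 3 arrays above it, the signal was at least 6.69-fold higher. SPS4 was 2.26-fold lower at 5 than at 1 mg/L at 180 min (log2 -1.18, SE 0.10, adjusted p = 8.67e-08). CDA1 was called here in opposite directions, 0.30 at 120 min (adjusted p = 0.0185) and -0.30 at 180 min (adjusted p = 0.0203). Its signal at 1 mg/L was 3.0, 2.66 and 2.82 at 120 min and 3.01, 3.16 and 2.86 at 180 min.

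The control cultures also differed between times for 5 of the genes, 2 higher and 3 lower at 180 min, where 11.1% of all probe sets were called higher and 12.1% lower. SPR3 was 3.24, 3.57 and 3.39 in controls at 180 min, against 3.13, 3.0 and 2.87 in controls at 120 min (log2 0.40, SE 0.14, limma adjusted p = 0.0492), and SSP1 was 0.31 higher. CRR1 was 0.41 lower at 180 min in controls (SE 0.06, adjusted p = 0.00011), SPO21 0.37 lower and SSP2 0.37 lower. For SPR3, CRR1 and SSP2 the controls thus moved opposite to the difference between times in the 5 mg/L effect, which uses the same control arrays.

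Regulators of sporulation were read beside the members as a fixed list of 14 genes. By limma 4 rose, 4 fell and 6 were not called at 120 min, with a median of 0.00. At 180 min 6 rose and 1 fell, with a median of 0.13. Of all probe sets 25.4% were called higher and 32.7% lower at 120 min, and 27.1% and 34.3% at 180 min. NDT80, the activator of middle sporulation genes, was 4.6, 4.45 and 4.48 at 5 mg/L, against 3.33, 3.51 and 3.39 in controls at 120 min. At 180 min NDT80 was 4.5, 4.41 and 4.42 at 5 mg/L, against 3.45, 3.80 and 3.68 in controls. It rose by log2 1.10 at 120 min (SE 0.11, adjusted p = 2.82e-07) and 0.81 at 180 min (SE 0.11, adjusted p = 9.33e-06), and on the poly-A scale it had 0.27 at 120 min (adjusted p = 0.358).

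SUM1 fell by 0.37 on the log2 scale at 120 min (SE 0.07, limma adjusted p = 0.0002), RFM1 by 0.44 (SE 0.08, adjusted p = 0.000183) and HST1 by 0.17 (SE 0.07, adjusted p = 0.0298). SUM1 and RFM1 were called lower under all 3 scalings at 120 min, and HST1 was not under the common quantiles (adjusted p = 0.112). On the deposited scaling none of these 3 was called at 180 min, though RFM1 was under the common quantiles (adjusted p = 0.0248), and their differences between times did not pass, with adjusted p-values of 0.0570 to 0.798. IME1, the master regulator of entry into meiosis, had a log2 difference of 0.03 at 120 min and rose by 0.59 at 180 min (adjusted p = 0.00129). The difference between times for IME1 did not pass (0.56, limma adjusted p = 0.0603). IME2, a kinase of early meiosis, rose by 0.32 at 120 min and 0.38 at 180 min. RIM4, an RNA-binding protein that represses translation in meiosis, rose by 0.77 and 0.41, and IME4, an RNA methyltransferase, by 0.65 and 0.59. RIM101, an alkaline-response repressor, fell by 0.22 at 120 min. At 180 min the kinase RIM15 rose by 0.26 and the kinase RIM11 fell by 0.18. UME6, MCK1 and RME1 were not called at either time on the deposited scaling. On the poly-A scale IME2, IME4 and RIM4 had values below 0 at 120 min. No regulator of the list was called on that scale at 180 min, with 0.37 for IME1 (limma adjusted p = 0.398) and 0.58 for NDT80 (adjusted p = 0.172). Under the common quantiles IME4 was not called at either time, nor was RIM4 at 180 min (0.25, adjusted p = 0.0863).

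Of 25 other genes of spore formation, 11 rose, 4 fell and 10 were not called at 120 min by limma, with a median of 0.16. At 180 min 8 rose and 4 fell, with a median of 0.10. The shares of all probe sets were 25.4% higher and 32.7% lower at 120 min, and 27.1% and 34.3% at 180 min. LDS2, a lipid droplet protein of spore walls, rose by log2 1.55 at 120 min (SE 0.08, adjusted p = 9.86e-11) and 1.42 at 180 min (SE 0.08), and stayed called higher under all 3 scalings at both times. SHC1, an activator of chitin synthase in sporulation, rose by 0.65 at 180 min, and GSC2, a glucan synthase subunit, by 0.56, and these were not called on the poly-A scale. CHS3, the chitin synthase that serves growing cells and spores, fell by 0.56 at 120 min (SE 0.06) and 0.52 at 180 min. CHS7, needed to export Chs3, fell by 0.42 at 120 min, and SWM1, a subunit of the anaphase-promoting complex, by 0.54.

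The genes next to the members on the chromosome were read as well, with the gene order of assembly R64. For the 8 genes with the largest rises at 120 min, 13 of the neighbours had a probe set, of which 3 were called higher and 4 lower by limma, where 25.4% and 32.7% of all probe sets were. One of the 3 was SPS2, a member itself, which follows SPS1 on the same strand with 0.44 against 1.34 for SPS1. YHR138C, next to SPS100 on the same strand, rose by 1.58 (SE 0.09) at 120 min, and PEF1, next to SPR3, by 0.37. Around SPO19, RPL5 fell by 0.33 and TAF14 was at 0.05 and not called. A noncoding transcript, SUT169, is annotated across SPS100 on the opposite strand.

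For the 5 genes called lower at 120 min, 8 neighbours had a probe set, of which 5 were called lower and 1 higher, where 32.7% of all probe sets were called lower and 25.4% higher. YLR342W-A, just before GAS2 on the same strand, was at -0.66 beside -0.67 for GAS2. PUS7, before SSP2 on the same strand, fell by 0.73 and MET7, on its other side, by 0.51. SPS19, a spore gene read away from SPS18 on the opposite strand, rose by 0.44 while SPS18 fell by 0.40. For SPS4 the neighbour with probe sets, RPL20B, was at -0.12 at 120 min and not called, and at -0.23 at 180 min (limma adjusted p = 0.0124). These values come from the first of its 2 probe sets. At 180 min, 7 of the 8 measured neighbours of the 6 genes called lower were called lower, where 34.3% of all probe sets were. Whether signal from a neighbour enters these values was not tested.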

How the data were processed

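The authors deposited log2 RMA signals per probe set, that is, probe intensities corrected for background, scaled between arrays and combined. The programs RMA, affy and limma are named per the submitters' processing notes, without versions, settings or log base, and the base was read from the range of values. Of 10928 probe sets, 5498 were matched to S. cerevisiae genes and 1747 to another yeast species. All 36 members had probe sets of the plain type, with no mark of shared transcripts. A model with a mean per group was fitted to all 18 arrays (limma 3.58.1, R 4.3.3; lmFit, contrasts.fit and eBayes with neither trend nor robust). Benjamini-Hochberg adjustment ran over the 5498 probe sets, with a threshold of 0.05. SEs pool the spread over 6 groups, and precision is limited by having 3 arrays per group. The fit was tested on simulated data. Replicate arrays correlated at r = 0.994 to 0.999. Of the comparisons checked, same-numbered arrays deviated together in every pair only for 1 mg/L against control at 120 min (residual r = 0.247 to 0.409). The reported estimates of that comparison still come from the fit without a block. A block on the replicate number, run as an alternative over all 18 arrays, changed no call of a member in that comparison. The members, lists and tests were chosen with earlier results of these data known. Array values are given for the 8 largest called rises at each time with no overlap of arrays, up to 6 called falls at each time, members called at 1 mg/L, 4 with a called difference between times and the 2 uncalled members with the highest control mean; array values of OSW1, CDA1 and NDT80 were added after they were seen. Gene order came from RefSeq assembly R64. Promoter sequences were not used here.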

Additional observations from a re-analysis of the deposited data

Results flagged for a closer look

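The effect of 5 mg/L nonylphenol differed between 180 and 120 min, by limma's test of the difference itself, for 7 of the 36 genes. Of all probe sets, 8.53% passed upward and 6.46% downward in that test. On the log2 scale, 180 minus 120 min, the differences were -1.08 for SPR3, -0.74 for SMA1, -0.64 for SPO19, -0.45 for OSW2, -0.49 for SPS4, 0.47 for SSP2 and 0.39 for CRR1. The adjusted p-values ran from 0.00325 for SPR3 to 0.0493 for OSW2. The calls of OSW2, SMA1, SPO19, SPS4 and SSP2 were each lost in at least 1 fit that left out 1 array. The poly-A control transcripts differed by -0.61 in the same comparison, and their part in these differences was not tested.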

How the results depend on the processing

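The counts of the 36 genes called were recomputed with other settings, and the cause of each change below was not tested. The shares of all probe sets called under those settings are not given here, so the counts are not read as particular to these genes. For 5 mg/L against control at 120 min (18 higher, 5 lower), common quantiles gave 9 higher and 11 lower, poly-A scaling 4 higher and 17 lower, array weights 8 lower, and fits without 1 array 16 to 18 higher and 4 to 6 lower. At 180 min (14 higher, 6 lower), common quantiles gave 8 higher and 11 lower, poly-A scaling 4 higher and 2 lower, and an adjusted p under 0.01 left 2 lower. Fits without 1 array gave 13 to 14 higher and 2 to 6 lower, with 2 lower without control_180 replicate 3. At 1 mg/L array weights gave 2 lower at 120 min and 1 higher at 180 min, and fits without 1 array 0. For 5 against 1 mg/L at 120 min (19 higher, 7 lower), quantiles gave 9 higher and 12 lower, poly-A scaling 4 higher and 22 lower, an adjusted p under 0.01 left 4 lower, and fits without 1 array gave 16 to 20 higher and 4 to 8 lower. At 180 min (11 higher, 5 lower), quantiles gave 12 lower, poly-A scaling 5 higher and 1 lower, an adjusted p under 0.01 left 2 lower, and fits without 1 array gave 11 to 12 higher and 2 to 6 lower. For the difference between times (2 higher, 5 lower), an adjusted p under 0.01 left 1 each way, trended robust moderation gave 3 lower, array weights 12 lower, quantiles 4 higher and 2 lower, poly-A scaling 0, and fits without 1 array 1 to 4 higher and 1 to 4 lower. For controls at 180 against 120 min (2 higher, 3 lower), an adjusted p under 0.01 left 0 higher, fits of these arrays alone gave 6 higher and 6 lower, trended robust moderation 1 higher, array weights 9 higher and 6 lower, quantiles 0 higher, poly-A scaling 0, and fits without 1 array 0 to 2 higher and 2 to 4 lower. Of the genes called at 5 mg/L, 19 of 23 at 120 min and 15 of 20 at 180 min stayed called in every fit without 1 array.

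With the replicate number as a block, 18 genes were higher and 5 lower at 120 min and 14 higher and 6 lower at 180 min for 5 mg/L against control. The block gave 1 higher for the difference between times and 1 higher for controls between times. Residuals of same-numbered arrays correlated at 0.01, -0.24 and -0.06 for 5 mg/L against control at 120 min, so the numbers were not taken as pairs there. The number of genes above background in controls was 24 with percentile 99 and 36 with the median of the other-species means, beside 29. The level range of 2 to under 5 was chosen after seeing the data.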
